A study of Mus musculus with 4 samples.

Results

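The genes of the RUNX transcription factors, Runx1, Runx2 and Runx3, and Cbfb, the gene of their shared partner subunit, were examined by ATAC-seq in SMC and non-SMC lines of mouse small cell lung cancer (SCLC). The chromatin considered was each gene body with 100 kb on each side. These 4 windows held 545 of 489558 peaks, which joined into 393 of 357570 regions of the genome. In brief, both non-SMC lines had peaks within the 6 kb centred on the distal start sites of Runx1 and Runx2. The same held for a series of sites inside both genes. The SMC lines had no peak at these places. A peak over the distal start of Runx1 itself was listed in non-SMC line 1 alone, and that of Runx2 rested on 7 reads in non-SMC line 2. The proximal promoter of Runx1 had a peak in all 4 libraries. Both SMC lines had their highest Runx1 peak at an SMC-only region in intron 4. Cbfb had a peak at its promoter in all 4 libraries, and the strongest peaks in its window in the non-SMC lines lay in its intron 3 and were listed in neither SMC line.

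ATAC-seq marks open chromatin by the places where a transposase can insert into DNA. SMC lines (NCAMhi CD44lo/-) and non-SMC lines (NCAMlo CD44hi) were sorted by flow cytometry from lung tumors of RP mice. In these mice an adenovirus with Cre, given into the trachea of young adults, deletes the floxed Rb1 and Trp53 alleles, so both types carry the same deletions, on a mixed background of C57Bl/6, Balb-c and S129. All lines were untreated. There were 2 SMC lines and 2 non-SMC lines with 1 library per line, so a value stands for a line grown in culture and not for a tumor. A two-sided exact permutation test of 2 against 2 libraries cannot give a p under 0.333, so the types were compared without a test. Differences are set beside the SD of the lines within a type (n = 2) and beside the share of all genes or regions of the genome that show the same pattern.

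RUNX proteins bind DNA through their Runt domain. CBFB, the product of Cbfb, does not touch DNA itself but raises the affinity of each RUNX protein for its site. Runx1 is known for its role in blood stem cells, Runx2 for bone formation and Runx3 for T cells and sensory neurons. Each of the 3 RUNX genes is transcribed from a distal promoter (P1) and from a proximal promoter (P2) further into the gene, and the proteins made from them differ at their start.

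The authors deposited 1 peak list per library, with 91118 to 154039 peaks. The depth implied by the background of the lists was 8.36 and 29.4 M reads for SMC lines 1 and 2, and 23.6 and 10.4 M reads for non-SMC lines 1 and 2, so each type had a deeper and a shallower library. Fold enrichment is the pileup of reads at the summit over the local background of the same library, and it was ranked only within its own list, as a percentile. A strong peak is here a peak with a -log10 q of at least 5, where q is the p-value adjusted for the number of places tested. The lists of SMC lines 1 and 2 held 13062 and 26312 strong peaks, and those of non-SMC lines 1 and 2 held 43984 and 25103. A region with a peak in both lines of a type and in neither line of the other is called SMC-only or non-SMC-only. The absence of a peak says that none was listed at this depth, since pileups outside peaks were not analysed here.

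The sequences below are the sites that the results return to. They are the summit with 100 bases on each side for the highest non-SMC-only region of each gene, the same for the highest SMC-only region of the RUNX genes that overlaps no annotated exon, and a stretch of equal length just upstream of the distal start site of Runx2. They are written 5′ to 3′ on the forward strand of GRCm38 (mm10). Capitals mark matches to the motifs searched on both strands, which were TGTGGT or TGCGGT for RUNX, TGACTCA for AP-1 (TGAGTCA on the other strand), GGAATG for TEAD and CAGCTG for an E-box.
Runx1 intron 6, non-SMC-only, chr16:92620812-92621012: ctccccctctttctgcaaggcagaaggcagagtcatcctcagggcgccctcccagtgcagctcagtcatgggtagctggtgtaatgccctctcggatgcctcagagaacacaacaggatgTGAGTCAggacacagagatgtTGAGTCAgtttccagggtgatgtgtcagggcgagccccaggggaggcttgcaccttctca
Runx2 far 3′ intron, non-SMC-only, chr17:44500447-44500647: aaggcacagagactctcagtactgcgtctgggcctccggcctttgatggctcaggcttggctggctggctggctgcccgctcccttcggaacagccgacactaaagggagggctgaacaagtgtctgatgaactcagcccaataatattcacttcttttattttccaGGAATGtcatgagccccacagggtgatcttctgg
Runx3 upstream, non-SMC-only, chr4:135073566-135073766: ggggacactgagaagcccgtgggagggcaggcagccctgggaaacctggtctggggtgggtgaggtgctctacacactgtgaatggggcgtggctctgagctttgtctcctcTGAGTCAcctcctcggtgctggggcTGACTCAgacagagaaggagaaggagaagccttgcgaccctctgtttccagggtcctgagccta
Cbfb intron 3, non-SMC-only, chr8:105186593-105186793: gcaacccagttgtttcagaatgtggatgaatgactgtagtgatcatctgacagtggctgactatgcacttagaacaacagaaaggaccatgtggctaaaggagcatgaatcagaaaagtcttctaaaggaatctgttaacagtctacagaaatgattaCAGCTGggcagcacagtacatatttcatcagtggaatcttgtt
Runx2 upstream, SMC-only, chr17:44859934-44860134: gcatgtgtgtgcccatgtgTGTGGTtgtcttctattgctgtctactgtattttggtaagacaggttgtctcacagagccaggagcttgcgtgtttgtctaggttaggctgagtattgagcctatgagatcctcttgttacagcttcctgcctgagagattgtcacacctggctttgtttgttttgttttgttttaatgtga
Runx2 distal start site, upstream bases, chr17:44814798-44814998: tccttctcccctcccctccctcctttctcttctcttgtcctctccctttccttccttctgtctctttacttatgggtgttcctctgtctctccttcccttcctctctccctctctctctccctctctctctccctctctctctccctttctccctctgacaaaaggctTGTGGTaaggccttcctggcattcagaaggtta
The Runx1 and Runx3 sites each held a pair of AP-1 matches, at 20 and 41 bases and at 12 and 37 bases from the summit. The Runx2 site held a TEAD match, the Cbfb site an E-box and the SMC-only site a RUNX match. The stretch upstream of Runx2 also held a RUNX match, 3 bases from the summit of the peak of non-SMC line 1. The summit of non-SMC line 2 lay 75 bases into the gene, outside this stretch.

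The first question was which promoters of these genes were open in which cell type. Protein-coding transcripts gave 8 start sites, 3 for Runx1, 2 each for Runx2 and Runx3 and 1 for Cbfb, and a site counts as covered when a peak overlaps the 6 kb centred on it. The distal sites of all 3 RUNX genes were non-SMC-only, 3 of the 8 sites, against 2.45% of all genes at their 5′ end. No site was SMC-only, against 3.08% of genes. The proximal sites of Runx1 and Runx2 and the site of Cbfb, 4 in all, had a peak in all 4 libraries, against 48.7% of genes.

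At the distal start site of Runx1 (chr16, position 92826149, minus strand) neither SMC line had a peak. Non-SMC line 1 had 3, with a fold enrichment of 6.26 at 2373 bases into the gene, 4.19 at 196 bases and 4.58 at position -2040, upstream of the start. Non-SMC line 2 also had 3, with a fold enrichment of 7.10 at 2322 bases into the gene and of 2.75 and 2.72 at positions -2045 and -2361. The pair of peaks about 2.3 kb into the gene was thus the higher in each line, at percentile 75.1 and 88.5 of its list. The peak over the start site itself was listed for non-SMC line 1 alone.

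At the distal start site of Runx2 (chr17, position 44814797, minus strand) the SMC lines again had no peak. Non-SMC line 1 had a single peak across the start site with a fold enrichment of 12.5, a -log10 q of 38.2 and 49 reads at the summit, which put it at percentile 95.3. In non-SMC line 2 a peak over the start site had a fold enrichment of 4.74, a -log10 q of 3.45 and 7 reads. Scaled to 10 M reads these summits were 20.8 and 6.74 reads high, a mean of 13.8 ± 9.95 (SD, n = 2). The 2 non-SMC lines therefore shared the site and differed in its height. By depth alone, that mean would correspond to 11.5 reads in SMC line 1 and 40.4 reads in SMC line 2. The lowest pileup of any listed peak was 3 and 5 reads in these libraries. Such counts assume that the libraries gather reads at open sites alike, which was not tested. At the Cbfb promoter, with a peak in all 4 libraries, the summits held 12 and 26 reads in SMC lines 1 and 2. In non-SMC lines 1 and 2 they held 40 and 22 reads, so these summits did not follow the implied depth.

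At the distal start site of Runx3 (chr4, position 135120652, plus strand) the peaks were weak. Non-SMC line 1 had a fold enrichment of 2.73 with a -log10 q of 0.955, and non-SMC line 2 had 2.54 with 0.358, at positions -1715 and -490 from the start. Neither covered the start site, they did not overlap each other, and they rested on 7 and 4 reads. Neither was a strong peak, so the pattern at Runx3 stands on listed peaks at the lower end of both lists, at percentile 16.0 and 21.8. The proximal site of Runx3 had a peak in the line numbered 1 of each type and none in the lines numbered 2.

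The proximal promoter of Runx1 (position 92697328) was open in all 4 libraries. The peak across the start site had a fold enrichment of 4.06 and 7.25 in SMC lines 1 and 2 and of 7.24 and 5.45 in non-SMC lines 1 and 2. A second peak, 560 to 588 bases into the transcript, had a fold enrichment of 9.66 and 9.02 in non-SMC lines 1 and 2 and was listed in neither SMC line. The promoter was thus covered in both types, and this part of it, inside the exon that begins there, in the non-SMC lines. The window of the third Runx1 site (position 92696125) overlaps that of the second and holds the same peaks. In narrower windows of 2 kb the third site was non-SMC-only, the distal site of Runx1 kept a peak in non-SMC line 1 alone and that of Runx3 in non-SMC line 2 alone. With equal numbers of top peaks from each list, the distal site of Runx3 had no peak in any library.

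The proximal promoter of Runx2 (position 44736648) had low peaks in every library, and the highest fold enrichment was 4.35 and 4.08 in SMC lines 1 and 2 and 3.71 and 3.82 in non-SMC lines 1 and 2. None was a strong peak. At the start site of Cbfb (position 105170674) a strong peak covered the start in each library, with a fold enrichment of 6.90 and 7.69 in the SMC lines and of 8.94 and 9.05 in the non-SMC lines. These stood at percentile 91.3, 94.2, 87.0 and 94.0, so the rank of the Cbfb promoter overlapped between the types.

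**Figure D1:**
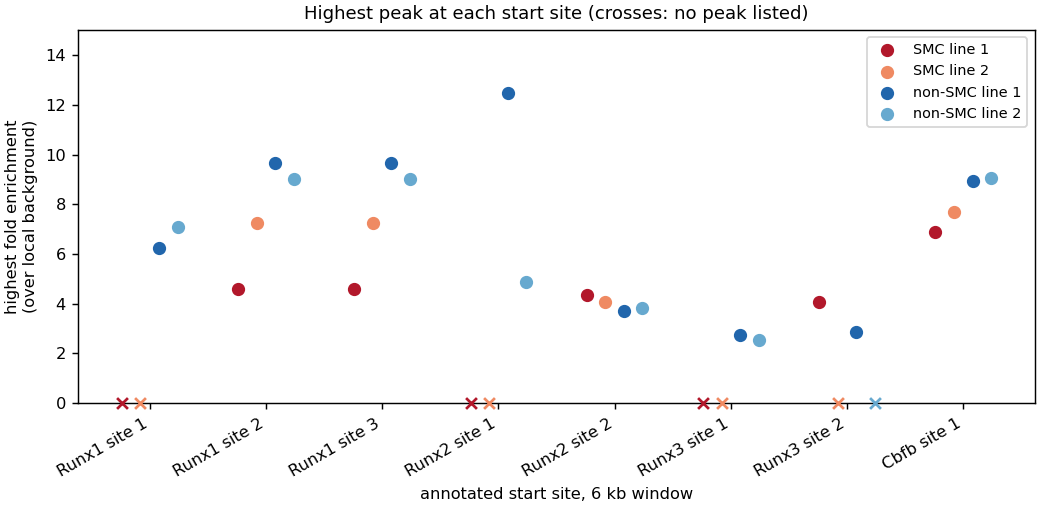
Highest fold enrichment (linear axis, over the local background of the same library) of a peak within the 6 kb centred on each of the 8 start sites, with a point per library and a cross where no peak was listed. Both SMC lines have crosses at the first site of Runx1, Runx2 and Runx3, all 4 libraries have points at Cbfb, and Runx1 sites 2 and 3 share their peaks because their windows overlap.

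Beyond the start sites, the windows were compared region by region. Of the 393 regions, 40 were non-SMC-only, which is 10.2% against 7.33% of all regions, and 9 were SMC-only, 2.29% against 4.37%. Peaks in all 4 libraries were found at 13 regions, 3.31% against 3.81%, and 301 regions had a peak in a single library. By gene, the non-SMC-only regions numbered 13 of 140 at Runx1, 15 of 111 at Runx2, 10 of 83 at Runx3 and 2 of 59 at Cbfb. The SMC-only regions numbered 3, 4, 0 and 2. Both peaks were strong in 18 of the non-SMC-only regions, 8 at Runx1, 7 at Runx2, 2 at Runx3 and 1 at Cbfb. The same held for 1 SMC-only region, at Runx1. In the genome these strong patterns made up 2.76% and 0.886% of all regions. Since the pattern asks for a peak in both lines of a type, leaving out a line of that type admits more regions. Without non-SMC lines 1 and 2 in turn there were 110 and 128 non-SMC-only regions, and without SMC lines 1 and 2 in turn 103 and 66 SMC-only regions.

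Per 100 kb, the non-SMC-only regions came to 3.06 at Runx1, 2.89 at Runx2, 3.89 at Runx3 and 0.809 at Cbfb, where the median over 21938 protein-coding genes was 1.14. At least as many were found at 9.24% of genes for Runx1, 11.7% for Runx2, 3.96% for Runx3 and 62.8% for Cbfb. The 3 RUNX genes stood in the upper part of this order and Cbfb below its middle. For SMC-only regions, 43.8% of genes had at least as many as Runx1, 42.3% as Runx2 and 41.1% as Cbfb, close to the middle.

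**Figure D2:**
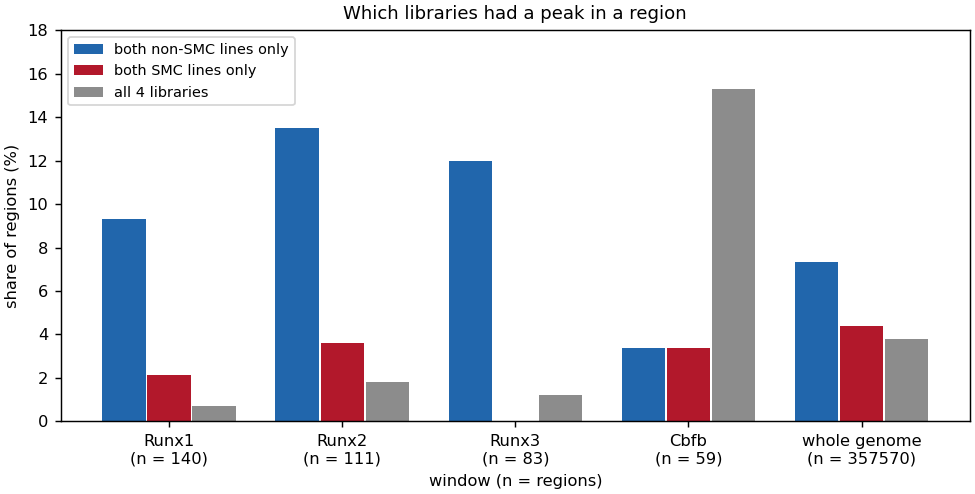
Share of regions (%) with a peak in both non-SMC lines only, both SMC lines only or all 4 libraries, in each gene window and over the whole genome (n = regions). The non-SMC-only share was 9.29% at Runx1, 13.5% at Runx2 and 12.0% at Runx3, above the 7.33% of the genome, and at Cbfb the largest share, 15.3%, was of regions shared by the 4 libraries.

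The places of the regions are given by pattern, but the patterns drew on different windows. Cbfb held 9 of the 13 regions with a peak in all 4 libraries and 2 of the 40 non-SMC-only regions. No share within 3 kb of a start site was taken over the genome. Of the 40 non-SMC-only regions, 24 were in introns, 9 upstream and 7 downstream of the gene, and 5 were within 3 kb of a start site. Of the 9 SMC-only regions 2 were, both in the Cbfb window. Of the 13 regions with a peak in all 4 libraries, 11 were within 3 kb of a start site of a protein-coding gene, among them the proximal promoters of Runx1 and Runx2, the promoter of Cbfb and those of neighbors such as Clic4, Supt3 and E2f4. Windows hold neighbors, and the nearest gene start was that of the RUNX gene or Cbfb for 6 of 13 non-SMC-only regions at Runx1, 1 of 15 at Runx2, 8 of 10 at Runx3 and 1 of 2 at Cbfb. At Runx2 this reflects Supt3, a gene for a subunit of a transcription coactivator complex, which starts inside the second intron of Runx2 and runs the other way. Position alone does not tie a region to a gene.

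**Figure D3:**
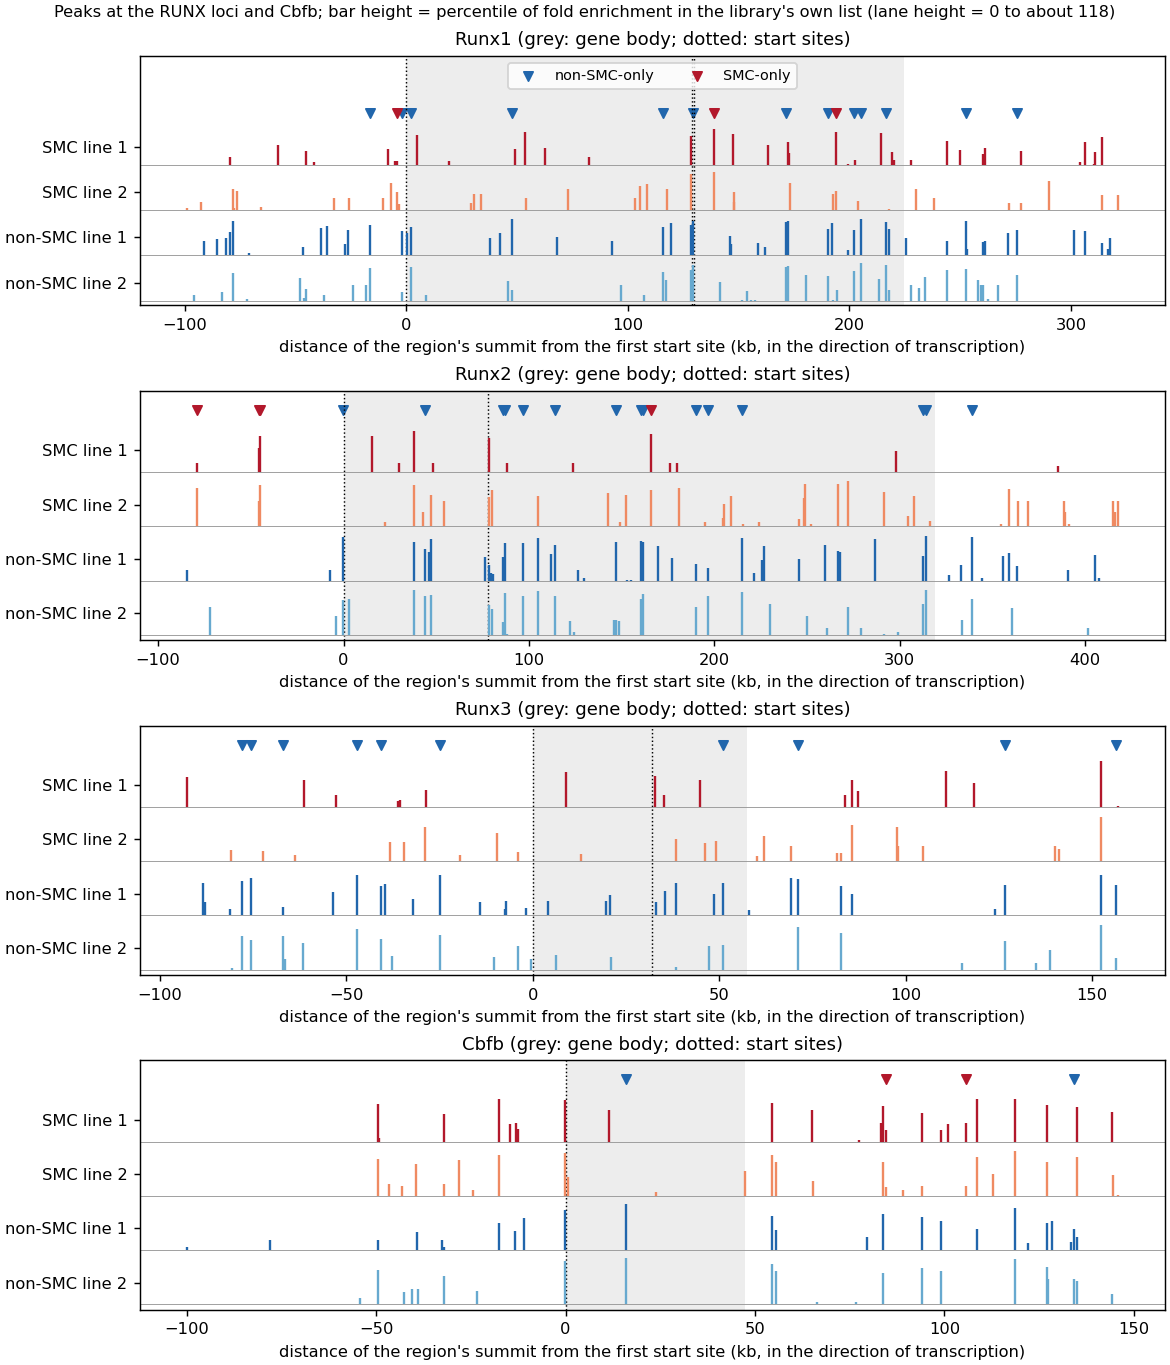
Peaks along the 4 windows, by the distance (kb) of the region's summit from the first start site in the direction of transcription, with a lane per library and bars whose height is the percentile of fold enrichment in that library's list. Triangles mark non-SMC-only (blue) and SMC-only (red) regions, grey the gene body and dotted lines the start sites. Blue triangles run along the bodies of Runx1 and Runx2 and upstream of Runx3, and at Cbfb there are 2.

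At Runx1 the highest peak of both non-SMC lines was the site in intron 6 whose sequence is given above (chr16:92620722-92621546), 205 kb into the gene. Its fold enrichment was 12.8 and 11.5 in non-SMC lines 1 and 2, from 103 and 44 reads, and neither SMC line had a peak. Per 10 M reads the summits were 43.8 and 42.4 reads high (mean 43.1 ± 0.987 SD, n = 2), nearly equal between the lines. By depth alone, that height corresponds to 36.0 reads in SMC line 1 and 126 in SMC line 2.

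The other strong non-SMC-only regions of Runx1 ran through the gene from its 3′ part to upstream of P1. In intron 7, chr16:92609293-92610042 had a fold enrichment of 8.72 and 8.15 in non-SMC lines 1 and 2, and in intron 5, chr16:92654517-92655127 had 8.86 and 7.13. A site downstream of the gene, chr16:92573303-92574049, had 10.2 and 5.65. A further site in intron 6, chr16:92623908-92624375, lay close to the highest and had 4.91 and 4.89. The remaining 3 were the part of the proximal promoter described above (chr16:92696531-92697032), the site near P1 (chr16:92823547-92823881) and a site 16.2 kb upstream of P1 (chr16:92842185-92842489), with a fold enrichment of 6.84 and 6.10. All 8 thus had a strong peak in both non-SMC lines.

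Runx1 also held the strong SMC-only region. It lies in intron 4 (chr16:92686804-92687702), 139 kb into the gene, where other transcripts have exons. The fold enrichment was 7.32 in SMC line 1 and 11.0 in SMC line 2, at percentile 92.4 and 98.2, and they were the highest peaks of the window in both SMC lines. Per 10 M reads the summits were 11.96 and 11.92 reads high. By depth alone, that height corresponds to 28.1 and 12.4 reads in non-SMC lines 1 and 2, where no peak was listed. Both types thus had their highest Runx1 peak inside the gene body, at different introns.

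At Runx2 the highest peak of both non-SMC lines was chr17:44500223-44500926, 314 kb from the distal start site in an intron of the longest annotated transcript and past the end of the main one. The fold enrichment was 14.0 from 159 reads in non-SMC line 1 and 11.7 from 38 reads in non-SMC line 2, at percentile 97.2 and 97.8. Per 10 M reads the heights were 67.5 and 36.6 (mean 52.1 ± 21.9 SD, n = 2). The SMC lines had no peak there, and that mean would correspond to 43.5 and 153 reads at their depths.

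The other 6 strong non-SMC-only regions of Runx2 were all intronic. The highest was chr17:44599918-44600954, with a fold enrichment of 11.0 and 8.61 in non-SMC lines 1 and 2. Next in mean percentile were chr17:44727711-44728243 in intron 3, with 7.57 and 7.97, and chr17:44653127-44653547 in intron 6, with 8.30 and 6.79. The other sites lie in intron 4 (chr17:44718115-44718947, 7.66 and 6.17), intron 5 (chr17:44700164-44700635, 6.78 and 6.10) and intron 2 (chr17:44770993-44771285, 5.21 and 6.22). The sites in introns 3 to 6 lie downstream of the proximal promoter, and that in intron 2 between the promoters.

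None of the 4 SMC-only regions of Runx2 had a strong peak in both SMC lines. The highest lay 45.2 kb upstream of the distal start site, inside the Supt3 gene (chr17:44859952-44860294), with a fold enrichment of 4.81 from 6 reads and 6.30 from 15 reads in SMC lines 1 and 2. The highest peaks of the SMC lines in this window were at other places. In SMC line 1 it was the promoter of Supt3, with a fold enrichment of 6.74, and in SMC line 2 an intronic site at chr17:44542699-44543125, with 10.0. The SMC lines did not share their highest Runx2 peak, and the non-SMC lines did.

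Runx3 had no SMC-only region. Of its 10 non-SMC-only regions, 6 lay upstream of the gene, between 24.9 and 78.0 kb from the distal start site. Strong in both lines were the site 47.0 kb upstream (chr4:135073548-135073885), with a fold enrichment of 9.05 and 6.82 in non-SMC lines 1 and 2, and a site downstream, 71.1 kb from the distal start (chr4:135191406-135191992), with 7.08 and 8.18. The upstream site was 12.7 and 11.6 reads high per 10 M reads. The highest peak of every library in this window belonged to the promoter of the neighbor Clic4, with a fold enrichment of 11.9 and 9.32 in the SMC lines and of 9.47 and 10.2 in the non-SMC lines. The local background of peaks in this window, relative to the lowest of the library, had a median of 1.71 and 1.70 in the SMC lines and of 1.39 and 1.34 in the non-SMC lines. It was higher in both SMC lines than in both non-SMC lines. At Runx2 the order was the opposite, with 1.00 and 1.02 in the SMC lines and 1.24 and 1.17 in the non-SMC lines, and at Runx1 and Cbfb the types overlapped. The part of the local background in the results was not tested.

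At Cbfb a site in intron 3 (chr8:105186416-105186966), 16.0 kb from the start, had the highest fold enrichment of each non-SMC list in the 4 windows. It was 19.1 from 81 reads in non-SMC line 1 and 16.3 from 35 reads in non-SMC line 2, at percentile 99.8 in both lists. Per 10 M reads the summits were 34.4 and 33.7 reads high (mean 34.0 ± 0.505 SD, n = 2). No peak was listed in the SMC lines, where by depth alone this height corresponds to 28.5 and 99.9 reads. The site was thus alike in both non-SMC lines, while the promoter of the same gene was covered in all 4 libraries. The other non-SMC-only region and both SMC-only regions of this window lay in neighboring genes, E2f4, B3gnt9 and Nol3, and had no strong pair of peaks.

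In the other 22 non-SMC-only regions at least 1 of the 2 peaks was not strong. Several had a higher fold enrichment in non-SMC line 1 than in non-SMC line 2, which are libraries of unlike depth. Some went the other way, such as chr17:44617851-44618463 in intron 7 of Runx2, with 2.83 and 6.16. In intron 2 of Runx1, 47.9 kb from P1 (chr16:92777846-92778650), the fold enrichment was 12.3 from 54 reads in non-SMC line 1 and 2.88 from 4 reads in non-SMC line 2. Per 10 M reads these summits were 22.9 and 3.85 high, a mean of 13.4 ± 13.5 (SD, n = 2). Downstream of Runx2 (chr17:44475798-44476359) the values were 12.2 and 4.96, at percentile 94.9 and 77.6 of their lists. In its intron 6 (chr17:44654480-44654806) they were 8.40 and 5.07. At Runx3 the region 24.9 kb upstream (chr4:135095672-135096371) had 9.24 and 4.83, and the pair of regions at 75.4 and 78.0 kb upstream had 7.60 and 3.75 and 6.23 and 4.38. At these sites the non-SMC lines differed in fold enrichment. The spread of the scaled heights varied among strong and other regions alike. Its SD was 0.987 and 0.505 reads at the strong Runx1 intron 6 and Cbfb intron 3 sites, but 21.9 at the highest Runx2 site, also strong. At Runx3 regions without a strong pair it was 0.041 (chr4:135079763-135080161) and 0.201 (chr4:135247239-135247490).

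A broader measure was the density of peaks in each window relative to the library's own list, for which 1 means as many peaks per base as the list has over the genome. At Runx2 it was 0.923 and 1.47 in SMC lines 1 and 2 and 2.31 and 1.71 in non-SMC lines 1 and 2. The log2 ratio of non-SMC to SMC was 0.75, larger than the SD between lines of a type (0.40, n = 2), and the groups did not overlap. At Runx3 it was 2.09 and 1.86 in the SMC lines and 3.20 and 2.14 in the non-SMC lines. The log2 ratio was 0.43 with an SD of 0.30, and the groups were only narrowly apart. They overlapped with equal numbers of top peaks, where non-SMC line 2 had 1.98 and SMC line 1 had 2.09. They also overlapped with 50 kb on each side (1.88 in non-SMC line 2, 2.25 in SMC line 2) and in the gene body alone (1.85 in non-SMC line 2, 2.09 in SMC line 1). Both non-SMC lines were above both SMC lines at 20.2% of all genes, so this order is common in the genome. Without SMC line 1 the ratio at Runx2 was 0.46, and at Runx3 it was 0.12 without non-SMC line 1 and 0.70 without non-SMC line 2.

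At Runx1 the relative density was 2.68 and 1.75 in the SMC lines and 2.94 and 2.54 in the non-SMC lines, so the groups overlapped. The log2 ratio of 0.31 was within the SD of 0.32, and it was 0.033 without SMC line 2 and 0.65 without SMC line 1. At Cbfb it was 2.90 and 2.08 in the SMC lines and 2.57 and 1.97 in the non-SMC lines, with a log2 ratio of -0.13 against an SD of 0.31, and it was 0.13 without SMC line 1 and -0.36 without SMC line 2. Neither difference was larger than the spread between lines of a type.

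Strong peaks gave a wider difference at the RUNX genes. Runx1 had 1 and 3 strong peaks in the SMC lines and 25 and 10 in the non-SMC lines, Runx2 had 1 and 5 against 20 and 13, and Runx3 had 1 and 1 against 16 and 3. Relative to the strong peaks of each list, the log2 ratio of non-SMC to SMC was 2.34 at Runx1, 1.87 at Runx2 and 2.08 at Runx3. Both non-SMC lines were above both SMC lines at all 3 genes, against 28.5% of all genes, and the opposite was found at 17.9%. Cbfb had 4 and 6 strong peaks in the SMC lines and 10 and 6 in the non-SMC lines, a log2 ratio of -0.20, with groups that overlapped. At Runx3 the non-SMC lines lay far apart, with relative densities of strong peaks of 3.85 and 1.27.

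**Figure D4:**
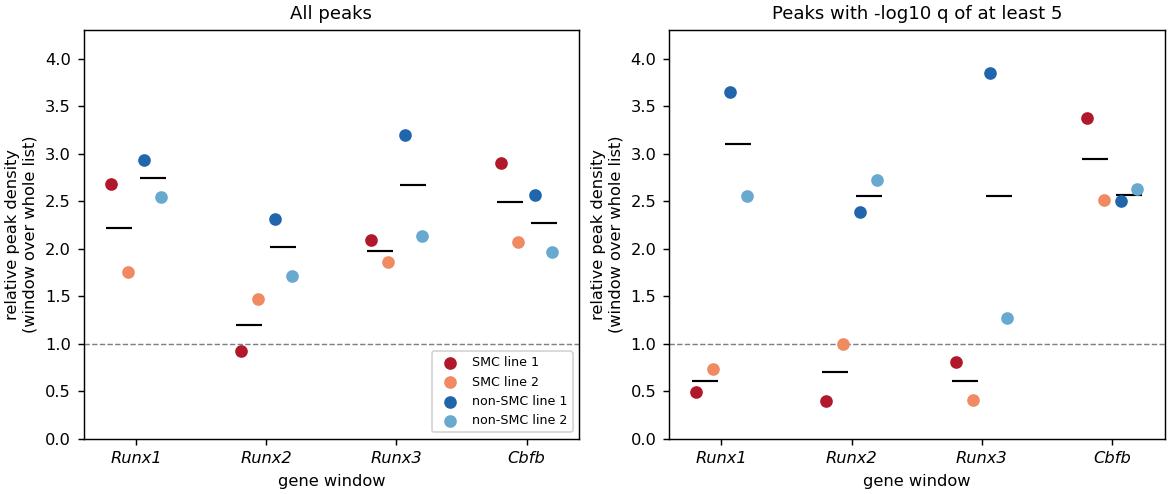
Relative peak density (peaks per base in the window over peaks per base in the library's own list) for all peaks (left) and for strong peaks (right), with a point per library, short lines for the mean of the 2 lines of a type and a dashed line at 1. With strong peaks the SMC lines lie between 0.402 and 0.998 at the RUNX genes and the non-SMC lines between 1.27 and 3.85, while at Cbfb the types overlap in both panels.

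The regions were then searched for motifs within 100 bp of the summit. AP-1 is the family of FOS and JUN factors, TEAD factors bind DNA for YAP1 and TAZ, and CAGCTG is an E-box, a site of basic helix-loop-helix factors. TGACTCA was found in 21 of the 40 non-SMC-only regions, 52.5% (95% Wilson interval 37.5% to 67.1%). It was found in 46.8% of non-SMC-only regions of the genome and in 11.3% of all regions. The share at these genes was thus near that of non-SMC-only regions elsewhere. By gene, 11 of 15 such regions held it at Runx2, 7 of 13 at Runx1, 3 of 10 at Runx3 and 0 of 2 at Cbfb. None of the 13 regions with a peak in all 4 libraries held it (0%, interval 0% to 22.8%), against 10.0% of such regions in the genome.

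The motif of the RUNX factors themselves was found in 11 of the 40 non-SMC-only regions, 27.5% (interval 16.1% to 42.8%). The genome had it in 31.6% of non-SMC-only regions, 15.9% of SMC-only regions and 20.4% of all regions. At Runx3, 5 of 10 non-SMC-only regions held it, at Runx1 3 of 13 and at Runx2 3 of 15, among them the region at its distal start site. TEAD matches were found in 20.0% of the 40 regions and E-boxes in 12.5%, near the 19.3% and 14.1% of non-SMC-only regions of the genome. These shares moved with the settings, and for TEAD the share was 5.0% within 50 bp of the summit and 34.8% among regions joined from strong peaks alone. With 40 regions the intervals are wide, and a match is a run of letters and not evidence of binding.

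**Figure D5:**
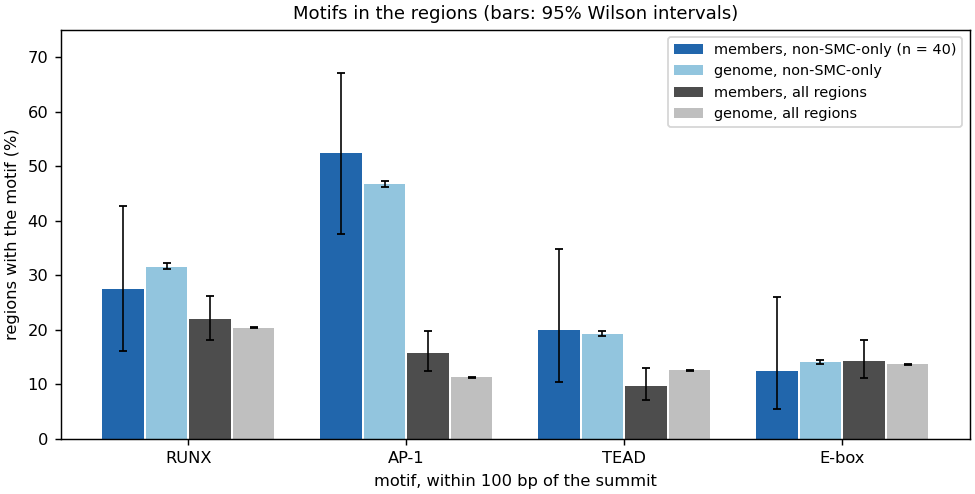
Share of regions (%) with each motif within 100 bp of the summit, for non-SMC-only regions and for all regions, in the 4 gene windows and in the genome, with 95% Wilson intervals that cover counting error only. The AP-1 bars of the non-SMC-only regions, 52.5% in the windows and 46.8% in the genome, stand above those of all regions, 15.8% and 11.3%.

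Partners and targets of RUNX proteins were examined at their promoters, in 6 kb centred on the 5′ end. The 30 partners are cofactors, modifying enzymes and other binding partners of RUNX proteins. Of these, 22 had a peak in all 4 libraries, such as Tle1 and Tle4 (Groucho corepressors), Ep300 and Crebbp (acetyltransferases) and Prmt1 (a methyltransferase). No partner was non-SMC-only or SMC-only, and 2, the blood factors Gata1 and Tal1, had no peak. Of all genes, 2.45% and 3.08% were in these patterns and 48.7% had a peak in all 4 libraries. With strong peaks, 4 of 30 were non-SMC-only, against 5.3% of genes, and none was SMC-only, against 1.63%. These were Cdk6 (a cell cycle kinase), Smad3 (a mediator of TGF-β signaling), Yap1 and Wwtr1, which encodes TAZ. The fold enrichment at Cdk6 was 6.26 and 6.62 in non-SMC lines 1 and 2 and 3.15 in SMC line 2, and SMC line 1 had no peak. At Smad3 it was 4.77 and 6.92 in the non-SMC lines and 3.32 and 3.26 in the SMC lines. TAZ is the subject of the study from which these lines come, so Wwtr1 and Yap1 are not independent of its choice. Without SMC line 2, 4 partners were non-SMC-only over all peaks, and without non-SMC line 1, 2 were SMC-only.

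Among 30 targets, 2 were non-SMC-only, the neighboring bone matrix genes Spp1 (osteopontin) and Ibsp (bone sialoprotein), none was SMC-only and 9 had a peak in all 4 libraries. The shares of all genes in these patterns were 2.45%, 3.08% and 48.7%. The fold enrichment at Spp1 was 7.52 and 6.10 in non-SMC lines 1 and 2, both strong peaks. At Ibsp it was 2.82 and 3.05, with -log10 q values of 0.955 and 0.921. Without SMC line 2 the non-SMC-only targets numbered 7, and without non-SMC line 2 they numbered 4. With strong peaks 5 targets were non-SMC-only, against 5.3% of genes. Beside Spp1 these were Col1a1 and Col1a2, the chains of type I collagen, Vegfa, a growth factor for vessels, and Tgfbr2, a receptor for TGF-β. Over all peaks, Col1a1 and Vegfa had a peak in all 4 libraries. At Vegfa the fold enrichment was 2.96 and 3.65 in the SMC lines and 4.02 and 4.96 in the non-SMC lines. Its -log10 q in SMC line 2 was 4.40, near the cutoff. Col1a2 had a fold enrichment of 8.91 and 8.53 in the non-SMC lines, 3.15 in SMC line 2 and no peak in SMC line 1. Gfi1, a repressor of transcription in blood and neuroendocrine cells, was SMC-only by strong peaks, with 9.93 and 5.45 in SMC lines 1 and 2 and 2.52 and 3.16 in non-SMC lines 1 and 2. The classic bone targets Bglap (osteocalcin) and Sp7 (osterix) and the blood targets Csf1r and Spi1 were not in either pattern, and Cd4 and Col10a1 had no peak.

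Promoters of marker genes were set beside the cell type labels. Several are not an independent check. The lines were sorted on NCAM and CD44, and lower Taz (Wwtr1) and Yap expression in SMC is a result of the study. Among neuroendocrine markers Chga was SMC-only, and Ncam1 had a peak in all 4 libraries. All 4 mesenchymal markers, Cd44, Vim, Wwtr1 and Yap1, were non-SMC-only by strong peaks, and of 4 epithelial markers Epcam and Cdh1 were SMC-only. The others were not. Krt8 had a peak in all 4 libraries, with a fold enrichment of 4.08 and 4.20 in the SMC lines and 7.94 and 6.28 in the non-SMC lines, and Krt18 had low peaks in each line but SMC line 1. Since RUNX genes are active in blood, 7 blood markers were included. A peak was listed at 1 and 4 of them in SMC lines 1 and 2 and at 3 and 2 of them in non-SMC lines 1 and 2. Vav1 had a peak in all 4 libraries, with a fold enrichment of 4.67 and 3.35 in the SMC lines and 6.42 and 4.06 in the non-SMC lines. Cd3e had none, and Ptprc had a single peak in non-SMC line 1 with a fold enrichment of 3.62. Markers with a strong peak numbered 0, 0, 1 and 0, and that marker was Vav1 in non-SMC line 1. Of 5 fibroblast markers 2, Pdgfrb and Col1a1, were non-SMC-only by strong peaks, and of 4 endothelial markers none was, although Pecam1 was non-SMC-only over all peaks. The part of other cells in the results was not tested.

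The genes whose 4 relative densities were nearest to those of each member were sought among 21905 genes, by the distance of log2 values over the 4 libraries. For Runx1 they were Adrb3 (0.0682) and Pbx2 (0.0907), for Runx2 Mfsd9 (0.145) and Slc9a2 (0.147), for Runx3 Kpnb1 (0.106) and Piwil2 (0.110) and for Cbfb Ptprn (0.0368) and Pla2g15 (0.0686). The windows of the 4 members held 16 to 53 peaks per library, and that of Mfsd9 held 7 in SMC line 1. With 4 values per gene, a near profile is a description of counts.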

How the data were processed

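The authors mapped paired-end ATAC-seq reads of 4 libraries to mm10 with Bowtie2 2.3.4, took out duplicates (sambamba) and ran MACS2 2.1.1 on each library by itself, with settings not given in the sources used here. Each deposited list gives, per peak, the fold enrichment, a ratio of summit pileup to local background, and the -log10 of its p-value and q-value. The lists keep peaks with p up to 0.01. The deposited score and the summit offset are further columns, of which the authors' score was not used.

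Other peaks than those of chromosomes 1 to 19, X and Y were dropped. The fold enrichment and Poisson p-value gave back the pileup and background, and the implied depth assumes the MACS2 mouse genome size and takes the shortest peak as the fragment length. Regions are the 4 lists merged where peaks overlap by at least 1 base. Genes and start sites came from GENCODE M21, with start sites within 1 kb joined, and sequences from the RefSeq GRCm38 assembly. Steps were tested on simulated data. Named are the 4 genes, their start sites, the highest peak per library, regions strong in both lines of 1 type, listed partners and targets with a promoter pattern, and the 2 nearest genes by density. Partners and targets with other patterns, and markers, were named as examples after their values were seen. The genes, lists and motifs were chosen with earlier results of these data known. The labels describe paired lines and give them numbers, and 2 pairs are too few to check the pairing. Alternatives were strong peaks, equal numbers of top peaks (91057), depth scaled to the shallowest library, other windows and overlaps, line pairs and each library left out. RNA data of the study were not used here. The tools were pandas 2.3.3, numpy 2.4.6, scipy 1.17.1 and matplotlib 3.10.9 under Python 3.11.15, with bedtools 2.31.1 as a check of overlaps.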

Additional observations from a re-analysis of the deposited data

How the results depend on the processing

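Of 122 values under alternatives, 86 stayed within the spread or within 1.5 times the main count and 36 moved. The Cbfb density ratio, which was within its SD, changed sign from -0.13 to 0.13 without SMC line 1 and to 0.045 without non-SMC line 2, and no other value did. The cause was not tested. With strong peaks alone the log2 density ratio was 2.34 at Runx1, 1.87 at Runx2 and 2.08 at Runx3. Joining strong peaks alone left 3 SMC-only and 23 non-SMC-only regions, 1 start site (the distal site of Runx1), 4 partners, and 5 non-SMC-only and 1 SMC-only targets. Scaled to the shallowest depth, the ratio at Runx1 was 0.67, and there were 5 SMC-only regions, 3 non-SMC-only partners, and 2 SMC-only and 4 non-SMC-only targets. Equal numbers of top peaks gave 1 SMC-only target, and promoters of 2 kb gave 1 non-SMC-only partner. Gene bodies held 3 SMC-only and 25 non-SMC-only regions, and regions nearest to a member's start were 5 and 16. Within 250 bp of the summit the shares in non-SMC-only regions were 47.5% for RUNX, 37.5% for TEAD and 27.5% for the E-box, and within 50 bp they were 17.5% for RUNX and 5.0% for TEAD and for the E-box. Among regions joined from strong peaks the TEAD share was 34.8%. As the mean within line pairs (a replicate block), the ratios were 0.34 at Runx1, 0.77 at Runx2, 0.41 at Runx3 and -0.13 at Cbfb, which changed no direction. Leaving out each library in turn gave 0.033 (without SMC line 2) to 0.65 (without SMC line 1) at Runx1, 0.46 (without SMC line 1) to 1.12 (without SMC line 2) at Runx2, 0.12 (without non-SMC line 1) to 0.70 (without non-SMC line 2) at Runx3 and -0.36 to 0.13 at Cbfb. It gave 9 to 103 SMC-only regions (103 without SMC line 1, 66 without SMC line 2) and 44 to 128 non-SMC-only regions (110 without non-SMC line 1, 128 without non-SMC line 2). The start sites stayed at 3 non-SMC-only and 0 SMC-only. Partners ranged from 0 to 4 non-SMC-only (4 without SMC line 2) and 0 to 2 SMC-only (2 without non-SMC line 1), and targets from 3 to 7 (7 without SMC line 2, 4 without non-SMC line 2) and 0 to 3 (3 without non-SMC line 1). Depth and 2 lines per type limit all of these comparisons.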
